A study of Mus musculus with 2 samples.

Results

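The 78 genes described here encode proteins of the mitochondrial ribosome. They are all genes of the deposited tables whose symbol starts with Mrpl or Mrps followed by a digit, 49 of the large subunit (Mrpl) and 29 of the small subunit (Mrps), out of 32285 features. Their levels were followed in mouse regulatory T (Treg) cells, T cells that restrain other immune cells. The cells had been stained with MitoTracker, a dye taken up by mitochondria, and sorted into a dye-high population, Mito-high, and a dye-low population, Mito-low. Each population gave 1 library made with a droplet-based kit that reads transcripts at their 5′ end and counts molecules by unique molecular identifiers (UMIs). The labels state no age, strain, sex, tissue or treatment for the mice, and no number of mice behind a library.

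The mitochondrial ribosome makes the few membrane proteins of the respiratory chain that mitochondrial DNA encodes. All of its proteins are encoded in the nucleus, made by cytosolic ribosomes and imported, while its RNAs come from mitochondrial DNA. T cells build up mitochondrial translation when they leave the resting state and divide, and loss of this translation limits their proliferation. Many of its proteins have a counterpart in the bacterial ribosome and others are particular to mitochondria.

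Levels are UMI sums over cells, scaled to counts per 1000000 UMIs (CPM); a UMI count does not grow with transcript length. Barcodes were kept with at least 500 detected genes and at most 20% of UMIs from mitochondrially encoded (mt-) genes. This left 12217 of 12352 Mito-high barcodes with a median of 6132 UMIs per cell, and 11679 of 11901 Mito-low barcodes with a median of 4668. The Mito-high barcode number exceeds the 12000 cells given as loaded. The libraries shared 38 barcode sequences, 35 of them among kept cells. Malat1, a nuclear transcript, made up 0.959% of the Mito-high UMIs, against 1.81% of the Mito-low ones, and Gm42418, an rRNA-like transcript, 0.146% against 0.402%. All 5 Treg markers, Foxp3, Il2ra, Ctla4, Ikzf2 and Tnfrsf18, were detected in both libraries, with Foxp3 at 25.8 CPM in the Mito-high and 41.0 CPM in the Mito-low library. Ctla4, Ikzf2 and Tnfrsf18 were lower in Mito-high as well, while Il2ra was higher, at 210 CPM against 157 CPM in Mito-low. Of B cell markers, Cd79b was counted at 11.3 CPM in the Mito-high and 15.4 CPM in the Mito-low library, Cd79a at 3.15 and 0.743 CPM, Ebf1 at 3.63 and 0.529 CPM, and Ms4a1 at 0.790 and 0.314 CPM. Markers of myeloid cells summed to 1.6 and 1.2 CPM. The epithelial markers Epcam, Krt8 and Krt18 summed to 9.96 CPM in the Mito-high and 39.9 CPM in the Mito-low library, with Krt8 not detected. With 1 library per population, population and library cannot be told apart, no test between groups was possible, and the 95% intervals below cover counting error only.

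Cells were split by marker genes into 4 classes. Cycling cells held at least 3 of Pclaf, Birc5, Mki67, Top2a, Rrm2 and Cdca8. Of the remainder, effector cells held at least 2 of Ccl5, Il10 and Klrg1, genes of activated Treg cells, and resting cells held at least 1 UMI of Igfbp4. All remaining cells are called other cells. The Mito-high library held 2678 resting, 138 effector, 561 cycling and 8836 other cells, and the Mito-low library 185, 1522, 38 and 9931. The rules count detected transcripts, so class sizes depend on the UMIs per cell. With every cell thinned to 2000 UMIs, 1425 resting, 46 effector and 249 cycling Mito-high cells met them, and 94, 762 and 11 Mito-low cells. Of 7 markers per class that the rule did not use, the summed level was highest in the class of that name in both libraries. Each single marker was higher in its class than in other cells of the same library, except Tcf7 in Mito-high, at 169 CPM in resting and 175 CPM in other cells, and Icos in Mito-low, at 417 CPM in effector and 436 CPM in other cells. Ccr7, a lymph node homing receptor of resting T cells, was counted at 524 CPM in resting and 462 CPM in other Mito-high cells, and at 451 and 143 CPM in Mito-low. Cdk1, a kinase of mitosis, was counted at 92.5 CPM in cycling and 1.6 CPM in other Mito-high cells, and at 26.6 and 1.6 CPM in Mito-low. Prdm1, a transcription factor of effector Treg cells, stood at 52.9 CPM in effector and 7.0 CPM in other Mito-high cells, and at 50.3 and 27.1 CPM in Mito-low.

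Taken as 1 pool per library, the 78 genes together were counted at 4301 CPM in Mito-high cells (interval 4288 to 4315) and 3733 CPM in Mito-low cells (3718 to 3749), a ratio of 1.15 (1.15 to 1.16). The large subunit genes summed to 2764 CPM in the Mito-high and 2372 CPM in the Mito-low library, a ratio of 1.17. The small subunit genes summed to 1538 CPM in the Mito-high and 1362 CPM in the Mito-low library, a ratio of 1.13. Large subunit UMIs outnumbered small subunit UMIs by 1.80 to 1 in Mito-high and 1.74 to 1 in Mito-low cells. A median Mito-high cell held 23 UMIs of these genes (quartiles 15 and 36) from 18 of them, and a median Mito-low cell 16 UMIs (11 and 24) from 14 of them. Measured against the proteins of the cytosolic ribosome the order turned: there were 13.7 mitochondrial ribosomal UMIs per 1000 cytosolic ones in Mito-high and 14.7 in Mito-low cells. Measured against mt- transcripts, Mito-high cells held 12.5 and Mito-low cells 11.6 of them per 100 mt- UMIs.

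Gene by gene the shift was small and mostly in 1 direction. A gene was compared where it averaged at least 10 CPM over both pools with at least 20 UMIs, which 74 of the 78 genes passed. Of these, 63 were higher in Mito-high, 58 of them with an interval wholly above a log2 ratio of 0, and 11 were lower, 5 with an interval wholly below 0. Their median log2 ratio, Mito-high over Mito-low, was 0.22, against -0.15 over all 7358 genes compared, 0.38 over 80 cytosolic ribosomal protein genes and 0.01 over the 13 mt- genes. Large subunit genes had a median of 0.26 (48 genes) and small subunit genes 0.15 (26 genes). Past 1.5-fold, a log2 ratio of 0.58, only Mrps28 and Mrpl27 were higher in Mito-high, beside 3.47% of all genes compared. None was 1.5-fold lower, beside 10.3% of all genes. Mrps27, Mrps22, Mrpl47 and Mrps2 did not pass the filter. Mrps27 was counted at 7.99 CPM in the Mito-high and 8.31 CPM in the Mito-low library, Mrps22 at 11.6 and 8.34 CPM, Mrpl47 at 6.41 and 4.96 CPM, and Mrps2 at 3.95 and 3.54 CPM.

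**Figure D1:**
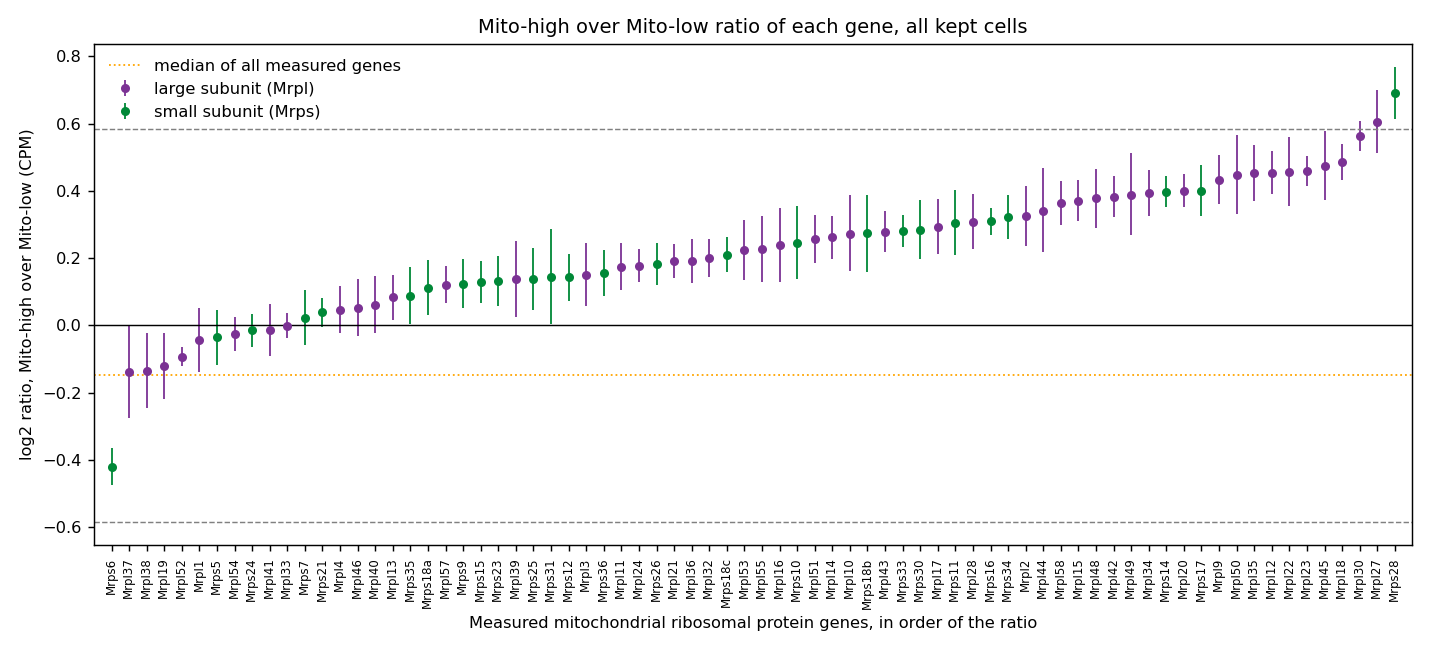
Log2 ratio of CPM, Mito-high over Mito-low (y axis) for each of the 74 genes that passed the filter (x axis, in order), with 95% counting intervals; dashed lines mark 1.5-fold and the dotted line the median of all genes compared. The points run from -0.42 for Mrps6 to 0.69 for Mrps28, and 63 of them lie above 0.

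The levels differ far more between the genes than between the libraries. In Mito-high cells single genes ranged over 3.95 to 265 CPM with a median of 44.2 CPM, and in Mito-low cells over 3.54 to 283 CPM with a median of 35.9 CPM. The 6 most counted genes held 23.2% of the set's UMIs for Mito-high and 24.0% for Mito-low. Mrpl52, a protein of the large subunit with no bacterial counterpart, was the most counted, at 265 CPM in the Mito-high and 283 CPM in the Mito-low library. Mrpl33, a small protein of the large subunit, was counted at 165 CPM in both libraries. Both were therefore among the genes that did not share the general shift, with log2 ratios of -0.09 and -0.00. Mrps16, a small subunit protein with a bacterial counterpart, stood at 153 CPM in the Mito-high and 124 CPM in the Mito-low library, and its small subunit partner Mrps21 at 128 and 125 CPM. Mrpl30 and Mrpl23, which complete these 6, differed more and are described next.

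Mrps28, a small subunit protein on chromosome 3 (chr3:8802146-8923918, minus strand, GRCm38), showed the largest ratio. It was counted at 50.9 CPM in Mito-high cells (4575 UMIs) and 31.5 CPM in Mito-low cells (1908 UMIs), a log2 ratio of 0.69 (0.61 to 0.77). Mrpl27, a large subunit protein whose bacterial counterpart reaches the peptidyl transferase centre, was counted at 32.7 CPM in the Mito-high and 21.5 CPM in the Mito-low library, a log2 ratio of 0.61 (0.51 to 0.70). Mrpl30, a large subunit protein with a bacterial counterpart, was counted at 145 CPM in the Mito-high and 98.2 CPM in the Mito-low library, a log2 ratio of 0.56 (0.52 to 0.61). These 3 genes had the highest ratios of the set, but the intervals of Mrpl27 and Mrpl30 overlap those of Mrpl18 and Mrpl45, which follow. Mrpl18, of the central protuberance of the large subunit, followed with 93.7 CPM in the Mito-high and 66.9 CPM in the Mito-low library, at 0.49. Mrpl45, which lies at the exit of the peptide tunnel and helps hold the ribosome at the inner membrane, was counted at 25.95 CPM in the Mito-high and 18.7 CPM in the Mito-low library, at 0.47. Mrpl23, a tunnel exit protein as well, was counted at 140 CPM in the Mito-high and 102 CPM in the Mito-low library, at 0.46. The intervals of these last 3 overlap, so their order is not set by the counts.

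Mrps6, a small subunit protein with a bacterial counterpart, went the other way. It was counted at 62.3 CPM in Mito-high cells (5599 UMIs) and 83.4 CPM in Mito-low cells (5047 UMIs), a log2 ratio of -0.42 (-0.48 to -0.37). It stood well apart from the next lowest genes of the set. Its exons overlap those of Slc5a3, an inositol transporter gene on the same strand, so UMIs of the pair may not be separated. The other genes on the low side were Mrpl37 at -0.14, Mrpl38 at -0.14, Mrpl19 at -0.12, Mrpl52 at -0.09 and Mrpl1 at -0.05. Mrpl37 is particular to mitochondria, Mrpl38 belongs to the central protuberance, and Mrpl1 is the counterpart of a bacterial protein of a mobile stalk. These 5 small negative values depend on the scaling. With TMM factors, which centre the bulk of all genes, the whole set moved up by 0.19, 73 of the 74 genes lay above 0 with 14 at least 1.5-fold higher, and only Mrps6 remained negative, at -0.23.

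RefSeq promoter sequence (GRCm38.p6) was at hand for 69 of the 78 genes. Short motifs known from promoters of nuclear genes for mitochondrial proteins were searched on both strands in windows of 250 bases before to 50 bases after the start. The motif GCATGCGC, the core bound by the factor NRF1, was found for 8 of the 69 genes (11.6%), against 3.05% of the 27025 genes in the table. CCGGAAGT, bound by ETS family factors, was found for 12 genes (17.4%), against 4.31%. AAGATGGCG, bound by YY1, was found for 8 genes (11.6%), against 1.64%. At least 1 of these was found for 37.7% of the genes, against 8.47% of all. The windows of the set had a median GC content of 58.7%, and all windows 52.7%. GCATGCGC can overlap its own reverse complement GCGCATGC. A match is a string of letters, not a shown binding site. The 150 bases before the start are printed for 3 genes with log2 ratios of 0.43 to 0.61 and a match there, and for Mrps6, which had none, to let the promoters be read beside the values. They were chosen after matches and ratios were seen and stand for no trend: 20 of the 57 genes with a ratio above 0 held a match, and 4 of the 8 below 0. Capitals mark the matches: CCGGAAGT in Mrpl27 (chr11:94653641-94653790, plus strand), GCGCATGC in Mrpl22 (chr11:58171514-58171663, plus strand) and both strands of the NRF1 core in Mrpl9 (chr3:94443186-94443335, plus strand). The Mrps6 stretch is chr16:92058186-92058335, plus strand.
Mrpl27: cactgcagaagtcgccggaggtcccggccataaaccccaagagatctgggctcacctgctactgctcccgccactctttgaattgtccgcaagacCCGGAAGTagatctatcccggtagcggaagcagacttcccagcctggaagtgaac
Mrpl22: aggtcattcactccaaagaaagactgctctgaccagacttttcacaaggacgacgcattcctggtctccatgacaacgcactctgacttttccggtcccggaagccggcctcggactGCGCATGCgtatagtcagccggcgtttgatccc
Mrpl9: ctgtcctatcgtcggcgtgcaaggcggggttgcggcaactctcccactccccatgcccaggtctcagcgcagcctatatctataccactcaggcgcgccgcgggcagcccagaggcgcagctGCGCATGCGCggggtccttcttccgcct
Mrps6: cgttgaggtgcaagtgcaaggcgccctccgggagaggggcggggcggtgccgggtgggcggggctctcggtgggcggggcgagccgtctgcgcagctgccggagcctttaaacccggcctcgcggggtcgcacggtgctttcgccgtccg

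Arranged by place in the ribosome, every group of large subunit proteins leaned to Mito-high in the whole libraries. Of the stalk proteins, Mrpl12, which receives the translation factors and also binds the mitochondrial RNA polymerase, was counted at 66.6 CPM in the Mito-high and 48.6 CPM in the Mito-low library, a log2 ratio of 0.45. Mrpl10, which carries Mrpl12, was counted at 19.9 CPM in the Mito-high and 16.5 CPM in the Mito-low library, at 0.27, and Mrpl11, at the stalk base, at 48.3 and 42.8 CPM, at 0.17. The 7 proteins of the central protuberance had a median of 0.23, with 6 above 0 and Mrpl38 below. The 7 tunnel exit proteins that passed the filter were all above 0, with a median of 0.34. Of large subunit proteins with a bacterial counterpart, 26 of 29 were above 0 (median 0.27), and of those without one 16 of 21 (median 0.22). In the small subunit, 12 of 15 with a counterpart were above 0 (median 0.14), and 8 of 8 without one (median 0.16).

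The 3 Mrps18 genes are paralogs that take different places, and Mrps18a sits in the large subunit despite its symbol, as does Mrps30. Mrps18a was counted at 35.5 CPM in the Mito-high and 32.8 CPM in the Mito-low library, at 0.11, Mrps18b at 19.3 and 15.9 CPM, at 0.27, and Mrps18c at 88.4 and 76.4 CPM, at 0.21. Mrps18c was thus the most counted of the 3 in both libraries. Mrps36, in turn, is now known as a protein of the oxoglutarate dehydrogenase complex. With Mrps30 and Mrps18a counted as large and Mrps36 left out, the difference of the subunit medians was 0.12, against 0.11 by symbol.

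Ribosomal proteins that carry other symbols shared the lean. All 5 were above 0 with intervals wholly above 0, at a median of 0.27. Chchd1 was counted at 96.4 CPM in the Mito-high and 67.4 CPM in the Mito-low library, a log2 ratio of 0.52. Dap3, a GTP-binding small subunit protein also known from cell death, was counted at 71.1 and 57.1 CPM, at 0.32, and Gadd45gip1, of the large subunit, at 49.6 and 41.3 CPM, at 0.27. Ptcd3 stood at 0.14 and Aurkaip1 at 0.09.

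The machinery around the ribosome did not move with it as a group. Its medians stand beside a median over all genes compared that is also negative, as given above. They depend on the scaling too, since TMM factors move every ratio of this comparison up by 0.19. Of 25 assembly genes 12 passed the filter, with a median of -0.09. C1qbp, a matrix protein needed for mitochondrial translation, went the other way, at 97.6 CPM in the Mito-high and 57.3 CPM in the Mito-low library, a log2 ratio of 0.77. So did Noa1, a GTPase of small subunit assembly, at 0.53. The rRNA methyltransferases Mettl15 and Nsun4 were at -0.37 and -0.34. Of translation factors, 9 of 15 passed, with a median of -0.02. Tsfm, the exchange factor of the elongation factor Tufm, was at 0.53 and Tufm itself at 0.23, while the recycling factor Gfm2 was at -0.36 and the initiation factor Mtif2 at -0.26. Of mitochondrial tRNA synthetases, 8 of 17 passed, with a median of -0.18 and 1 above 0. Lars2 was counted at 48.3 CPM in the Mito-high and 88.6 CPM in the Mito-low library, at -0.87. Iars2 was at -0.69, Fars2 at -0.31 and Wars2 at -0.28. Of mitochondrial transcription and replication genes, 5 of 10 passed, with a median of -0.10; Ssbp1, the single-stranded DNA-binding protein, was at 0.29, Polg2 at -0.29, Tfb2m at -0.21 and Polg at -0.10. Of the mt- genes, whose transcripts this ribosome translates, mt-Nd4l stood at -0.48, mt-Atp8 at -0.39, mt-Atp6 at 0.27 and mt-Nd6 at -0.19.

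Cycling cells differed from other cells by more than the libraries did, at summed ratios of 1.46 in Mito-high and 1.47 in Mito-low. The ratio between the libraries was 1.15. Effector over other cells stood at 1.21 in Mito-high but 1.07 in Mito-low, and resting over other cells at 0.90 and 0.92. The 78 genes summed to 3749 CPM in resting, 5032 CPM in effector, 6096 CPM in cycling and 4168 CPM in other cells of the Mito-high library. In the Mito-low library they summed to 3377 CPM in resting, 3944 CPM in effector, 5411 CPM in cycling and 3688 CPM in other cells. The order was the same in both libraries, with resting cells lowest and cycling cells highest, and no intervals of neighbouring classes overlapped. Cytosolic ribosomal proteins had another order. They took 34.7% of UMIs in resting, 25.3% in effector, 28.1% in cycling and 31.0% in other Mito-high cells, and 33.7%, 23.6%, 24.6% and 25.5% in Mito-low. For every 1000 cytosolic ribosomal UMIs there were 10.8 mitochondrial ones in resting, 19.9 in effector, 21.7 in cycling and 13.4 in other Mito-high cells, and 10.0, 16.7, 21.99 and 14.4 in Mito-low. The share of mt- UMIs stayed between 3.06% and 3.54% in all 8 pools.

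**Figure D2:**
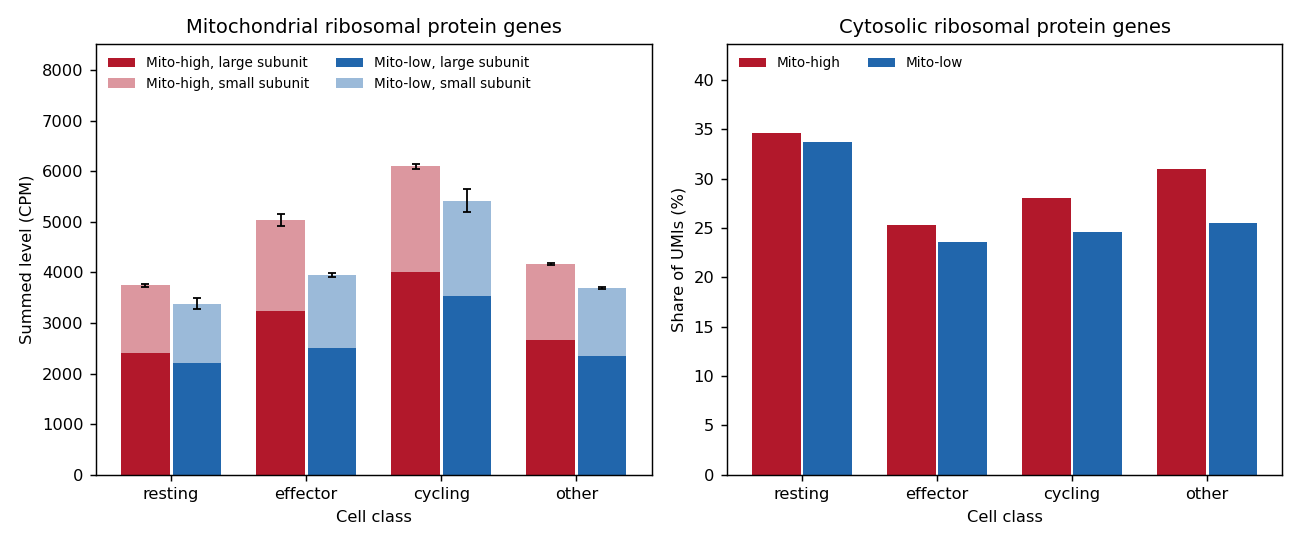
Left, summed CPM of the mitochondrial ribosomal protein genes in each class (x axis) of both libraries, split by subunit, with 95% counting intervals of the sum; right, the share of UMIs (%) from cytosolic ribosomal protein genes in the same cells. The left bars peak in cycling cells, at 6096 and 5411 CPM, and the right bars in resting cells, at 34.7% and 33.7%.

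Depth per cell moved with the classes and bears on every comparison of them. Cycling cells had a median of 16569 UMIs, effector 8193, resting 6318 and other cells 5852 in Mito-high; in Mito-low the medians were 10632, 5273, 5582 and 4555. Within other cells alone, the summed level increased with UMIs per cell, in Mito-high from 2892 CPM below 3000 UMIs to 5187 CPM at 12000 UMIs or more, and in Mito-low from 3077 to 4172 CPM. In ranges of depth with at least 10 cells of a class, cycling cells still stood above other cells and resting cells below them. Effector intervals lay apart from those of other cells in some ranges. In Mito-low the intervals of resting and other cells overlapped below 3000 UMIs and at 4000 to 5000 UMIs. Just 2 Mito-high cycling cells had 4000 to 5000 UMIs, at 3510 CPM (2416 to 4930), against 3607 CPM in other cells. The 4 at 5000 to 6000 UMIs stood at 3952 CPM (3165 to 4874), against 3687 CPM. Among cells of 8000 to 12000 UMIs, cycling cells stood at 5603 CPM, resting at 3911 CPM and other cells at 4437 CPM in Mito-high, and at 5552, 3562 and 4103 CPM in Mito-low, the last cycling value from 10 cells. Effector cells in this range stood at 4602 CPM (4401 to 4811) in Mito-high, with an interval that overlaps that of other cells, and at 4045 CPM in Mito-low, below the 4103 CPM of other cells. At 4000 to 5000 UMIs Mito-low effector cells were above other cells, at 3787 CPM against 3528 CPM, with intervals that do not overlap.

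**Figure D3:**
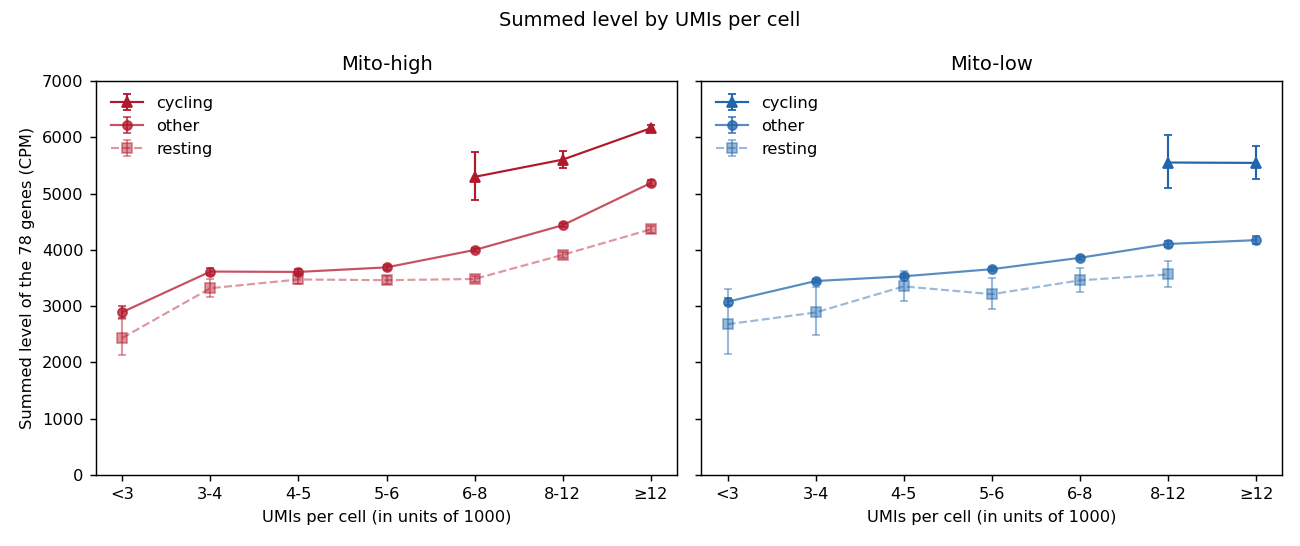
Summed CPM of the 78 genes (y axis) in cycling, other and resting cells binned by UMIs per cell (x axis, in units of 1000), with 95% counting intervals; bins of at least 10 cells are drawn. In both libraries cycling cells lie above other cells and resting cells below them in every bin drawn, and the lines of other cells climb with depth.

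In cycling cells nearly the whole set was higher than in other cells. Among Mito-high cells 73 of 75 genes were above 0, 71 of them with an interval wholly above 0, at a median log2 ratio of 0.55, against 0.01 over 7309 genes. Of these genes 33 were at least 1.5-fold higher, beside 16.1% of all genes compared, and none 1.5-fold lower, beside 11.6%. In the Mito-low library, with 38 cycling cells, 68 of 74 genes were above 0 at a median of 0.60, 40 at least 1.5-fold higher, beside 21.5% of all genes, and none lower, beside 14.1%. Of the 73 genes compared in both libraries 66 were above 0 in both and 23 were 1.5-fold higher in both. Cytosolic ribosomal protein genes had medians of -0.12 in Mito-high and -0.03 in Mito-low. Cycling cells gave the highest level of the 4 classes for 67 of the 78 genes in Mito-high and 65 in Mito-low. Among Mito-high cells of at least 12000 UMIs the median fell to 0.19, with 64 of 76 genes above 0 and 7 at least 1.5-fold higher. The B cell marker Cd79b was counted at 20.8 CPM in cycling and 10.9 CPM in other Mito-high cells, and at 38.7 and 14.4 CPM in Mito-low. Cd79a, Ms4a1 and Ebf1 stood at 2.43, 2.02 and 3.54 CPM in cycling Mito-high cells, against 3.55, 0.777 and 4.38 CPM in other ones, and all 3 were at 0 in cycling Mito-low cells. Without cells that held at least 2 B cell markers, the median was 0.56 in Mito-high, from 555 cycling cells, and 0.60 in Mito-low.

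Mrpl18 of the central protuberance had the highest cycling ratio in Mito-high and the next highest after Mrpl27 in Mito-low. It was counted at 228 CPM in cycling and 78.6 CPM in other Mito-high cells, a log2 ratio of 1.54 (1.46 to 1.61), and at 172 and 65.1 CPM in Mito-low, at 1.42 (1.04 to 1.74). Mrpl27 was counted at 69.2 CPM in cycling and 29.4 CPM in other Mito-high cells, at 1.24, and at 65.3 and 20.6 CPM in Mito-low, at 1.72. Mrpl49, a large subunit protein without bacterial counterpart, was counted at 35.4 and 15.7 CPM in Mito-high, at 1.17, and at 33.8 and 13.7 CPM in Mito-low, at 1.40. These 3 were among the 4 highest in both libraries. Mrpl51, likewise particular to mitochondria, was the remaining one of the 4 in Mito-high, with 107 CPM in cycling and 43.8 CPM in other cells, at 1.29. In Mito-low it was Mrpl37, with 26.6 and 12.2 CPM, at 1.25 (0.11 to 1.97) from 11 UMIs in cycling cells. Exons of Mrpl18, Mrpl27 and Mrpl49 overlap antisense genes, Tcp1, Eme1 and Syvn1, as those of 27 genes of the set do in all, and whether counting used the strand is not given in the sources used here.

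Few genes of the set were flat or lower in cycling cells. Mrps6 was counted at 62.4 CPM in cycling and 68.4 CPM in other Mito-high cells, at -0.13 (-0.26 to -0.01), and at 79.8 and 83.5 CPM in Mito-low, at -0.02. Mrpl30 was counted at 135 and 145 CPM in Mito-high, at -0.10 (-0.19 to -0.02), but at a log2 ratio of 0.55 in Mito-low. Mrpl24, a tunnel exit protein, was at 0.08 in Mito-high, against -0.10 in Mito-low, and the small subunit protein Mrps35 at 0.09 and -0.04. In Mito-low the lowest were Mrps7 at -0.37, Mrpl3 at -0.36 and Mrps10 at -0.28, each from 10 UMIs or fewer in cycling cells and with an interval that spans 0. Those 3 were at 0.72, 0.75 and 0.49 in Mito-high. Across the 73 genes the Spearman correlation of the cycling ratios of both libraries was 0.45, given as a description of genes that share their libraries.

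**Figure D4:**
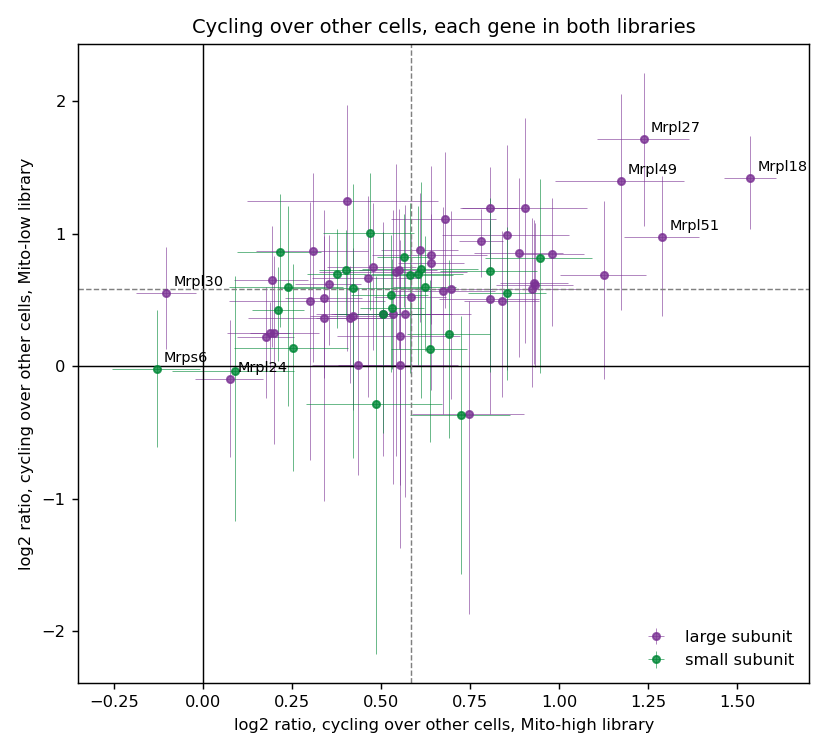
Log2 ratio of cycling over other cells in the Mito-high library (x axis) and the Mito-low library (y axis) for the 73 genes compared in both; lines through points are 95% counting intervals and dashed lines mark 1.5-fold. Mrpl18, Mrpl27 and Mrpl49 stand at the upper right, Mrps6 and Mrpl24 near 0 in both libraries.

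The stalk, protuberance and tunnel exit groups shared this direction. In cycling over other cells the 3 stalk genes had medians of 0.57 for Mito-high and 0.63 for Mito-low, the 7 protuberance genes 0.55 and 0.73, and the 7 tunnel exit genes 0.53 and 0.40. The large subunit genes had a median of 0.57 in Mito-high, and the small subunit genes 0.53. Large subunit UMIs outnumbered small subunit ones by 1.91 to 1 in cycling and 1.77 to 1 in other Mito-high cells, and by 1.89 and 1.74 to 1 in Mito-low. Of the partners, Tsfm stood at 1.04 for Mito-high and 0.86 for Mito-low. Tfam, which packs mitochondrial DNA and helps start its transcription, stood at 0.72 and 0.69. Assembly genes had medians of only 0.04 and 0.17 over 13 genes each, and tRNA synthetases of -0.19 and -0.32 over 8 and 7 genes.

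Taken over all depths, effector cells were also above other cells. In Mito-high 64 of 75 genes were above 0 at a median of 0.29, against 0.13 over 7250 genes, with 12 at least 1.5-fold higher, beside 15.1% of all genes, and none 1.5-fold lower, beside 6.66%. In Mito-low 54 of 74 were above 0 at a median of 0.12, against 0.03 over all genes; none was 1.5-fold higher, beside 3.38% of all genes, or lower, beside 2.05%. Effector cells were deeper than other cells, and among cells of at least 12000 UMIs the direction turned in Mito-low, with a median of -0.02 and 35 of 76 genes above 0, while in Mito-high it was 0.23, from 28 effector cells. With TMM factors the Mito-high effector median was 0.14, with 3 genes 1.5-fold higher. In both libraries 49 genes were above 0, 18 with intervals wholly above 0 in both. The cytosolic ribosomal protein genes had medians of -0.30 and -0.12. The difference between the libraries' effector ratios was not tested. Epithelial markers summed to 41.8 CPM in effector and 11.1 CPM in other Mito-high cells, and to 75.6 and 34.3 CPM in Mito-low. Their part in the effector ratios was not tested.

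Mrpl53, a large subunit protein without bacterial counterpart, led the effector ratios in Mito-high, with 52.1 CPM in effector and 30.1 CPM in other cells, a log2 ratio of 0.82 (0.42 to 1.15), and stood at 0.28 in Mito-low. Mrpl41, likewise without counterpart, was counted at 59.2 and 34.9 CPM in Mito-high, at 0.78, and was near level in Mito-low at 36.1 and 37.1 CPM. Mrpl27 was at 0.76 there and at 0.29 for Mito-low, and Mrps25 at 0.72 in Mito-high. In Mito-low the highest were Mrpl34 at 0.32, Mrpl32 at 0.30, Mrpl35 at 0.30 and Mrpl27. Mrpl23 went the other way in both, with 103 CPM in effector and 135 CPM in other Mito-high cells, at -0.38 (-0.65 to -0.14), and 89.4 and 103 CPM in Mito-low, at -0.21 (-0.32 to -0.10). Mrps5 was lower as well, at -0.32 in Mito-high and -0.24 in Mito-low, the first with an interval that spans 0. Mrpl38 and Mrps10 in Mito-high, at -0.36 and -0.18, and Mrps31 and Mrpl58 in Mito-low, at -0.23 and -0.19, complete the low ends; Mrpl58 is a hydrolase that frees stalled peptides.

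Resting cells lay below other cells, by little. In Mito-high 8 of 75 genes were above 0 at a median of -0.15, against -0.08 over 7054 genes, with 45 intervals wholly below 0. None was 1.5-fold higher, beside 0.397% of all genes, and 1 was 1.5-fold lower, beside 3.73%. In Mito-low, with 185 resting cells, 25 of 74 were above 0 at a median of -0.09, against -0.14 over 7296 genes; none was 1.5-fold higher, beside 4.82%, and 2 were 1.5-fold lower, beside 15.2%. With TMM factors the Mito-low median turned to 0.04, so the lower level of the set there depends on the scaling. The cytosolic ribosomal protein genes were higher in resting cells, with medians of 0.15 for Mito-high and 0.41 for Mito-low. Resting cells gave the lowest of the 4 class levels for 62 of the 78 genes in Mito-high and 51 in Mito-low.

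Mrps6 was the gene most reduced in resting cells of both libraries. It was counted at 42.4 CPM in resting and 68.4 CPM in other Mito-high cells, at -0.69 (-0.80 to -0.58), and at 35.6 and 83.5 CPM in Mito-low, at -1.19 (-1.72 to -0.78). Mrpl41 at -0.43, Mrpl39 at -0.35 and Mrpl27 at -0.34 followed in Mito-high. In Mito-low Mrpl17, a tunnel exit protein, was at -0.78 (-1.59 to -0.20), Mrps25 at -0.55 and Mrps36 at -0.48, from 19, 18 and 36 UMIs in resting cells. A few genes were at or above the level of other cells. Mrpl23 was counted at 150 CPM in resting and 135 CPM in other Mito-high cells, at 0.15 (0.09 to 0.21), and at 130 and 103 CPM in Mito-low, at 0.34 (0.08 to 0.57). Mrpl30 was at 0.05 in Mito-high and at 0.41 (0.16 to 0.64) in Mito-low. In Mito-high Mrps22, Mrps26 and Mrpl30, at 0.11, 0.06 and 0.05, and in Mito-low Mrpl55 and Mrps28, at 0.36 and 0.33, had intervals that span 0.

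**Figure D5:**
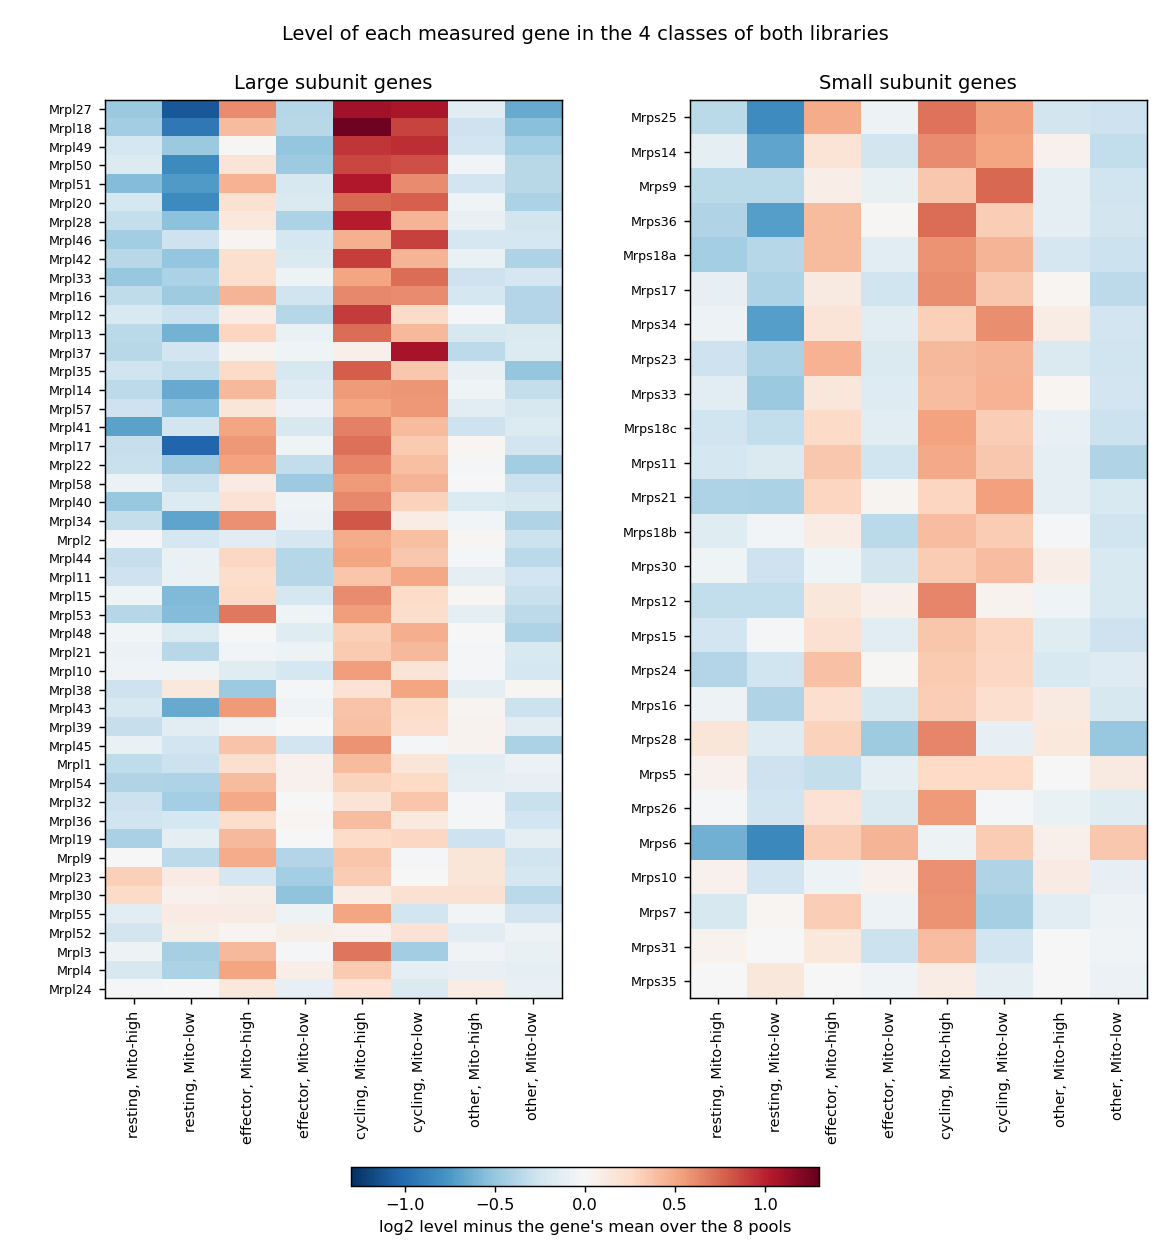
Level of each of the 74 genes that passed the filter in the 4 classes of both libraries, as log2 CPM minus the gene's mean over the 8 pools (colour), with genes sorted by their cycling level within each subunit. The cycling columns are red for most genes and the resting columns blue, with Mrpl23 and Mrpl30 red in resting Mito-high cells and Mrps6 blue.

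Within each class, taken over all depths, the set again leaned to Mito-high. The class of other cells was not alike in both libraries, however. Resting markers outside the class rule summed to 3455 CPM in other Mito-high and 1575 CPM in other Mito-low cells. Effector markers outside it summed to 320 CPM and 918 CPM. This also bears on every ratio of a class over other cells, and its part in the results was not tested. In other cells, 61 of 74 genes were above 0 at a median of 0.19, against -0.14 over 7350 genes; 1, Mrps28, was 1.5-fold higher, beside 2.52% of all genes, and none lower, beside 8.57%. In effector cells, 68 of 74 were above 0 at a median of 0.40, against -0.05 over 7437 genes, with 20 at least 1.5-fold higher, beside 7.64%, and none lower, beside 10.1%. The cycling markers outside the class rule moved with this ratio, at a sum of 193 CPM in effector cells of Mito-high and 39.1 CPM in those of Mito-low, with Ube2c at 52.1 and 3.7 CPM; their part in the result was not tested. Resting cells had 51 of 74 above 0 at a median of 0.17, against -0.06 over 6991 genes, with 5 at least 1.5-fold higher, beside 3.12%, and none lower, beside 7.87%. Cycling cells had 52 of 77 above 0 at a median of 0.14, against -0.17 over 7375 genes, with 11 at least 1.5-fold higher, beside 11.3%, and 2 lower, beside 23.2%. Of the 74 genes compared in every class 33 were above 0 in all 4, and Mrpl38 and Mrpl52 were below 0 in all 4. Mrpl15, Mrps14, Mrpl20, Mrps33, Mrpl17, Mrps16, Mrpl18 and Mrpl43 had intervals wholly above 0 in resting, effector and other cells, 8 genes chosen after their values were seen.

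In effector cells the largest of these ratios was that of Mrpl27, with 49.0 CPM in the Mito-high and 25.1 CPM in the Mito-low library, at 0.98 (0.54 to 1.37). Mrpl9, a large subunit protein with a bacterial counterpart, followed with 64.0 CPM in the Mito-high and 35.6 CPM in the Mito-low library, at 0.86, then Mrpl22 with 36.3 and 20.6 CPM, at 0.84, and Mrpl18 with 126 and 73.9 CPM, at 0.77. The tunnel exit genes, of which Mrpl22 is one, had a median of 0.62 here. The lowest were Mrpl38 at -0.44, Mrps5 at -0.18, Mrps6 at -0.13 and Mrps10 at -0.12, all with intervals that span 0.

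Resting and cycling cells rest on few Mito-low cells, so their single values are less firm. Mrpl17 was counted at 29.5 CPM in resting Mito-high and 16.9 CPM in resting Mito-low cells, at 0.73 (0.15 to 1.55), and Mrps34, whose exons overlap Nme3 on the same strand, at 54.5 and 33.9 CPM, at 0.65 (0.22 to 1.19). Mrpl50 and Mrpl27, at 0.65 and 0.61, had intervals that span 0. Mrpl52 was the only gene of the set wholly below 0 in resting cells, at 246 CPM in the Mito-high and 306 CPM in the Mito-low library, a log2 ratio of -0.32 (-0.47 to -0.15). Mrpl41 at -0.46, Mrpl38 at -0.41 and Mrpl40 at -0.31 were not. In cycling cells Mrpl3 was at 1.15, Mrps7 at 1.02, Mrps10 at 0.99 and Mrps22 at 0.75, from 10 or fewer Mito-low UMIs each. Mrpl37 at -1.003, Mrpl47 at -0.62, Mrpl46 at -0.43 and Mrps9 at -0.40 were lowest, with intervals that span 0.

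In other cells, which gave the most UMIs of the 4 classes in both libraries, the 3 highest genes and the lowest were those of the whole libraries. Mrpl22 and Mrpl9 stood among the 6 highest in place of Mrpl18 and Mrpl23, and Mrps5 and Mrpl41 among the 6 lowest in place of Mrpl52 and Mrpl1. Mrps28 was counted at 48.4 CPM in the Mito-high and 31.3 CPM in the Mito-low library, at 0.63 (0.54 to 0.72), Mrpl30 at 145 and 98.9 CPM, at 0.55, Mrpl27 at 29.4 and 20.6 CPM, at 0.51, and Mrpl45 at 25.1 and 18.3 CPM, at 0.46. Mrps6 was counted at 68.4 CPM in the Mito-high and 83.5 CPM in the Mito-low library, at -0.29 (-0.35 to -0.22). Mrpl37, Mrpl19 and Mrpl38 stood at -0.16, -0.15 and -0.14.

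Over the whole libraries the size of the lean to Mito-high varied with the depth per cell. Among cells of 4000 to 6000 UMIs, 4245 Mito-high and 4612 Mito-low cells, the summed ratio was 0.999 and the median log2 ratio -0.0028, with 35 of 72 genes above 0; the median of all genes was -0.18 there. By class the median in this window was 0.02 in other, -0.03 in resting and 0.40 in effector cells, against medians of all genes of -0.16, -0.20 and 0.14; the effector value rests on 30 Mito-high cells. By bin, the set summed to 3579 CPM in the Mito-high and 3559 CPM in the Mito-low library of 4000 to 5000 UMIs, and to 3638 and 3679 CPM at 5000 to 6000 UMIs. At 12000 UMIs or more the sum was 5429 CPM over 1383 Mito-high cells and 4208 CPM over 302 Mito-low cells, with a median log2 ratio of 0.39 and 16 genes at least 1.5-fold higher; cycling cells were 456 of the first and 16 of the second. With every cell thinned to 2000 UMIs, which kept 12078 Mito-high and 11188 Mito-low cells, the median over all cells was 0.14, with 53 of 74 genes above 0. The median of all genes was -0.15 at 12000 UMIs or more and -0.16 after thinning.

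In cells of 4000 to 6000 UMIs the ratios of the set shifted by a median of -0.25 from those in all cells, so lower values there were general. Mrpl30 was at 0.61 in this window, beside 0.56 in all cells. Mrps28 was at 0.51, below its interval of 0.61 to 0.77 in all cells. Mrps6 was at -0.79 and Mrpl52 at -0.26, beside -0.42 and -0.09 in all cells. Mrpl27 was at 0.24, beside 0.61. Across all alternatives Mrpl30 ranged over 0.47 to 0.75, Mrps28 over 0.51 to 0.93 and Mrps6 over -0.79 to -0.23. Transcript length did not order the ratios of the set: Spearman's correlation of the log2 ratio with the median transcript length was 0.0078 over the 74 genes, and -0.20 over 7357 genes. Both are descriptions across genes of the same 2 libraries.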

How the data were processed

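The authors deposited whole-number UMI counts for each gene in each barcode, made with Cell Ranger 7.1.0 per the file headers; the submitters' processing notes name mm10 and Seurat 4.3.0.1. Not given in the sources used here were the annotation release, the barcode filter and the handling of strand and intronic reads. All 78 genes matched, by gene ID, a protein-coding model of GENCODE M21 (GRCm38), which gave coordinates, transcript lengths and overlaps.

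UMIs were summed over the kept cells of a library or class and scaled to CPM. Log2 ratios were formed after adding 1 UMI to each sum. Intervals at 95% are exact Poisson for sums and exact conditional-binomial for ratios. With 1 library per population there is no replicate, test, p-value or standard error, and 1.5-fold only describes size. The ratio script was checked on simulated counts. Cells that met the cycling rule were placed there first; 4 Mito-high and 3 Mito-low cells that met both the effector and the resting rule were left out of the classes. Doublets were not called; an alternative drops the 2% of cells with the most UMIs. The genes, gene lists, classes and naming rules were chosen with earlier results of these data known. Named are, per comparison, the 6 (whole libraries) or 4 (classes) highest and lowest genes, the 6 most counted, the stalk and Mrps18 genes, those below the filter and up to 4 of each partner list; other genes were named after their values were seen. Further alternatives changed scaling (edgeR 4.0.16 TMM under R 4.3.3), gene filter, cells, depth and class rules. Python 3.11.15, numpy 2.4.6, scipy 1.17.1 and pandas 2.3.3 were used.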

Additional observations from a re-analysis of the deposited data

Results flagged for a closer look

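Cells outside the comparisons also held UMIs of these genes. The 135 Mito-high barcodes removed for too few genes or too many mt- UMIs gave a summed level of 1065 CPM, and the 222 Mito-low ones 989.6 CPM, far below the kept cells of either library. The 4 Mito-high cells that met both the effector and the resting rule gave 4753 CPM, and the 3 such Mito-low cells 4198 CPM.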

How the results depend on the processing

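With scaling by TMM, by a median of all genes set to 0, and by totals without mt-, ribosomal and receptor genes, the median of Mito-high over Mito-low was 0.41, 0.37 and 0.36, with 14, 10 and 9 genes at least 1.5-fold higher in place of 2; in other cells the medians were 0.35, 0.34 and 0.32. A mean of at least 30 CPM, dropping the 2% of cells with the most UMIs, and an equal class mix each left 1 gene 1.5-fold higher, and thinning to 2000 UMIs left 0. In cells of 4000 to 6000 UMIs the median was -0.0028 over all cells and 0.018 in other cells, with 1 gene 1.5-fold higher and 1 lower; the cause was not tested. Cells of at least 12000 UMIs, chosen after seeing the data, gave 0.39, 0.35 in other cells, 16 genes 1.5-fold higher, and 0.19 for cycling over other cells in Mito-high. For Mito-low cycling over other cells, thinning (11 cycling cells) gave 1.316, beside 0.91 over all genes, and the 4000 to 6000 window (4 cycling cells) 1.21, where all genes had 1.14; thinned cycling cells gave -0.51 for Mito-high over Mito-low, beside -0.48 over all genes. Thinned resting cells gave -0.06 for Mito-high over Mito-low, with 33 of 74 genes above 0, beside -0.26 over all genes. Adding no UMI to the sums, also chosen later, changed no direction of the medians. No pseudogenes or antisense genes matched the symbols, so that alternative had nothing to remove, and cycling cells of the window passed no gene between libraries. No paired analysis was possible because each population had 1 library. Small UMI sums limit single genes in the Mito-low resting and cycling pools.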
